A study of Danio rerio with 6 samples.

Results

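Heart muscle genes were examined in zebrafish larvae under 2 treatments, a leachate of tire wear particles (TWP) and the surfactant control. The genes were 10 named members, taken by symbol from a deposited table of 24826 genes: 7 contractile genes (myl7, vmhc, myh6, tnnt2a, tnni1b, tnnc1a and mybpc3), the natriuretic peptide genes nppa and nppb, and the calcium release gene ryr2a. All 10 were found and all 10 passed the filter on low counts, with between 20 and 4515 reads per gene and sample. The exposed group is named TWP 700, a number that the labels use both for a treadwear grade and for a concentration, so it is kept here as a name. The control medium held 0.001% bovine serum albumin, and no albumin content is recorded for the TWP 700 samples. All fish were wild type and were exposed from 4 to 168 h post-fertilization with fresh dishes from 72 h on. RNA came from pools of 80 whole larvae, 3 pools per group, labelled as biological replicates. The heart is a small part of such a pool, and a pool cannot tell fewer heart cells from less RNA per heart cell.

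The fish heart pumps through a single atrium and a single ventricle. Its muscle shortens when myosin heavy chains, paired with myosin light chains, pull on actin, and the troponin complex switches this pull on when calcium is released from internal stores through ryanodine receptors. In zebrafish, myl7 encodes the regulatory light chain of both chambers, vmhc the heavy chain of the ventricle and myh6 that of the atrium. Chamber muscle also secretes natriuretic peptides, hormones that act through cyclic GMP on vessels and salt balance, and nppa and nppb are widely used as readouts of chamber identity and of load on the heart wall.

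Of the 10 genes, nppa was lower and ryr2a was higher in TWP 700 larvae, and the other 8 did not pass the test (adjusted p under 0.05, edgeR's quasi-likelihood test over 23761 genes). The atrial myosin gene myh6 lay lower and the troponin I gene tnni1b lay higher in TWP 700 samples without overlap of the groups, with adjusted p above the threshold. The calls of 1 higher and 1 lower among 10 genes stand beside 15.2% of all tested genes called, 7.87% higher and 7.29% lower, so the share of heart genes called is near that of all genes. When libraries were scaled by their totals alone, 11.8% of all tested genes were called higher and 3.65% lower. The groups did not overlap in 4 of the 10 genes, beside 35.1% of all tested genes. Counts of genes called in the lists below stand beside the same shares of 7.87% higher and 7.29% lower. The median log2 fold change of TWP 700 over control was -0.23 for the 10 genes, -0.15 for the 7 contractile genes and -0.0026 for all tested genes. Scaling by library totals put the median gene at 0.131, so all fold changes are relative to the median gene, and none of the 10 members turned direction with them. Levels below are CPM, read counts relative to library size, after TMM scaling, and each log2 fold change is given with its standard error.

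**Figure D1:**
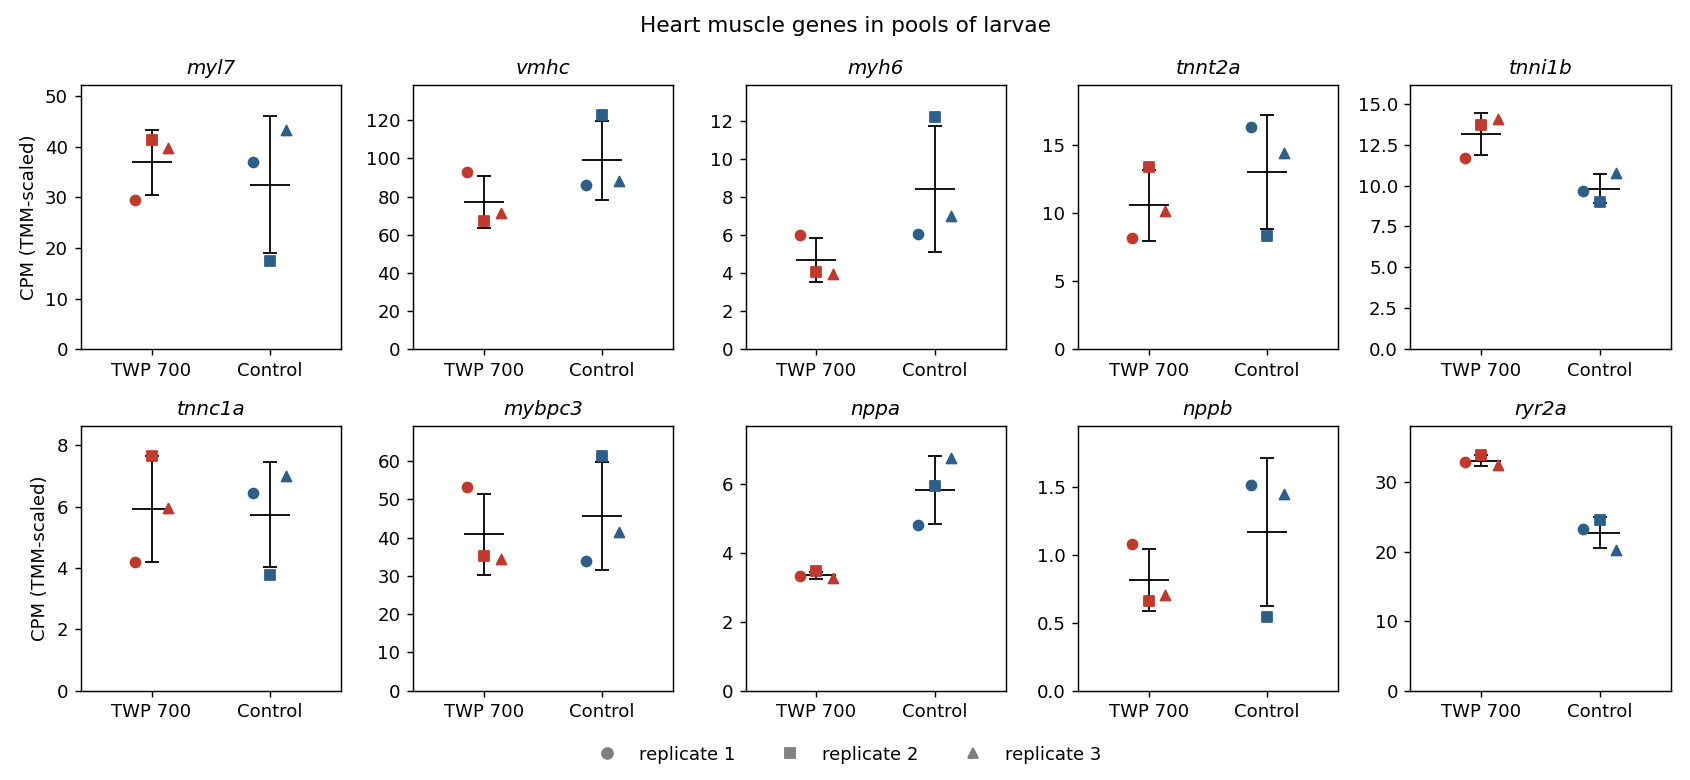
CPM of each of the 10 heart muscle genes in the 3 TWP 700 pools (left, red) and the 3 control pools (right, blue), with marker shape for the replicate number and bars for the mean and SD. The groups are apart for myh6, tnni1b, nppa and ryr2a and overlap in the other 6 panels.

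Total counts per sample ranged from 37030725 to 48431952. A pair of libraries stood apart from the other samples of their groups, TWP 700 replicate 1 and control replicate 2. Chi-square per degree of freedom between these and the other libraries of their group was 56.9 and 57.7 for TWP 700 replicate 1 and 83.9 and 89.2 for control replicate 2, against 8.53 and 22.7 for the remaining pairs. Abundant genes weigh most in this value. The titin gene ttn.1, for example, had 282723 reads in control replicate 2, against 80164 and 72680 in control replicates 1 and 3. Both libraries had relatively more reads on long genes: for the top 10% of genes by length, the log2 deviation from the gene mean had a median of 0.103 in TWP 700 replicate 1 and 0.199 in control replicate 2, and of between -0.12 and -0.0346 in the other 4 samples. Heart muscle genes differ widely in length and were split by these libraries, so the fold change of each member is also given without both. That fit has 2 pools per group, and the libraries left out were picked from these same data. It called 11.1% of tested genes higher and 10.9% lower, against 7.87% and 7.29% with all samples. Passing in it is therefore not independent support for a member.

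Among the light chain and thin filament genes, myl7 showed no shift between the groups. It had 29.5, 41.4 and 39.8 CPM in TWP 700 replicates 1 to 3, against 36.9, 17.4 and 43.3 CPM in control replicates 1 to 3. Control replicate 2 was the lowest of all 6 samples, and the groups overlapped. The log2 fold change of myl7 was 0.18 ± 0.34 with a 95% interval from -0.64 to 1.0 (adjusted p = 0.778, edgeR), so a change of up to 2-fold in the upward direction lay within the interval. Without control replicate 2 the log2 value was -0.12, and without both libraries it was 0.023 ± 0.10 (adjusted p = 0.904, edgeR).

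The troponin subunits did not share a direction. tnnt2a encodes cardiac troponin T, which ties the complex to tropomyosin and without which the embryonic zebrafish heart stays silent. It had 8.15, 13.4 and 10.1 CPM in TWP 700 pools, against 16.3, 8.30 and 14.4 CPM in controls. Both high control pools lay above all TWP 700 pools, while control replicate 2 lay among them, with a log2 fold change of -0.30 ± 0.26 (adjusted p = 0.501, edgeR). Single libraries moved this value, to -0.54 without control replicate 2 (adjusted p = 0.0624, edgeR), -0.50 without TWP 700 replicate 2, -0.11 without control replicate 1 and -0.14 without TWP 700 replicate 1. Without both libraries that stood apart it was -0.38 (adjusted p = 0.0688, edgeR). tnnc1a encodes the calcium-binding subunit troponin C, and it had 4.19, 7.64 and 5.94 CPM in TWP 700 pools, against 6.46, 3.78 and 6.98 CPM in controls (log2 0.04 ± 0.27, adjusted p = 0.941, edgeR). The lowest sample of each group for tnnc1a was again TWP 700 replicate 1 or control replicate 2, and without both the log2 value was 0.022.

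tnni1b, the troponin I gene that the table describes as slow skeletal and that is used as a heart gene in zebrafish, lay the other way. It had 11.7, 13.7 and 14.0 CPM in TWP 700 pools, against 9.68, 9.01 and 10.7 CPM in controls. Every TWP 700 pool was above every control pool, and the estimated level was 1.34-fold that of controls (log2 0.42 ± 0.13, adjusted p = 0.0515, edgeR), which did not pass. It passed in 6 of 17 alternative fits, among them the fit without TWP 700 replicate 1 (log2 0.50, adjusted p = 0.04, edgeR) and the fit without both libraries that stood apart (log2 0.45, adjusted p = 0.0199, edgeR). Of 9 slow skeletal muscle markers 0 were called higher or lower, and their median log2 fold change was -0.25. In alternatives with all samples, DESeq2 and limma-voom each called 1 of the 9 lower. So did edgeR with upper quartile scaling, with a CPM of at least 1 in 3 samples and with the gene length trend removed. The summed level of the 9 markers was between 1946 and 2121 CPM in TWP 700 pools and between 2135 and 2485 CPM in controls. The paralog tnni1d, named after its values were seen, went the other way and was called lower, at 30.7, 30.8 and 27.7 CPM in TWP 700 pools, against 43.0, 40.9 and 46.4 CPM in controls (log2 -0.55 ± 0.11, adjusted p = 0.00583, edgeR).

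Among the thick filament genes, vmhc had the most reads of all 10 members in every sample. This ventricular heavy chain gene had 92.9, 67.3 and 71.5 CPM in TWP 700 pools, against 86.2, 122.9 and 87.9 CPM in controls. TWP 700 replicates 2 and 3 were below all controls, whereas replicate 1 lay among them (log2 -0.36 ± 0.17, adjusted p = 0.185, edgeR). The log2 value of vmhc was -0.17 without control replicate 2 (adjusted p = 0.444, edgeR) and -0.51 without TWP 700 replicate 1 (adjusted p = 0.0777, edgeR). Without both it was -0.32 ± 0.09 and passed (adjusted p = 0.0182, edgeR). myh6, the atrial heavy chain gene, had 6.03, 4.08 and 3.97 CPM in TWP 700 pools, against 6.06, 12.2 and 7.01 CPM in controls. The groups did not overlap, although the highest TWP 700 pool and the lowest control pool were nearly level. The log2 fold change of myh6 was -0.84 ± 0.28 with a 95% interval from -1.46 to -0.21 (adjusted p = 0.0735, edgeR), a level 1.79-fold lower than in controls that did not pass. Calls of myh6 appeared in 4 of 17 alternative fits, including those without control replicate 1 (log2 -1.03, adjusted p = 0.0486, edgeR) and with a gene length trend removed from each library (log2 -0.82, adjusted p = 0.029, edgeR). Without control replicate 2 the log2 value was -0.47 (adjusted p = 0.137, edgeR), and without both libraries that stood apart it was -0.69 and passed (adjusted p = 0.0117, edgeR).

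mybpc3 encodes cardiac myosin binding protein C, which steadies the thick filament and tunes cross-bridge cycling. It had 53.1, 35.2 and 34.4 CPM in TWP 700 pools, against 34.0, 61.3 and 41.3 CPM in controls. The high sample of each group was the library that stood apart, the groups overlapped, and the log2 fold change was -0.15 ± 0.25 (adjusted p = 0.74, edgeR). Without control replicate 2 it was 0.12 ± 0.19, and without both libraries -0.11 ± 0.11. Summed over the 7 contractile genes and per length, the deposited TPM values, transcript levels relative to the whole library, were 120.1, 115.2 and 109.7 in TWP 700 pools, against 112.9, 89.3 and 102.0 in controls. These sums overlapped between the groups, with control replicate 2 lowest. In CPM, which is not divided by length, the sums were 205.6, 182.7 and 179.9 in TWP 700 pools, against 195.6, 234.9 and 211.7 in controls. The CPM sums overlapped as well, with control replicate 2 highest, so its place depends on the measure.

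**Figure D2:**
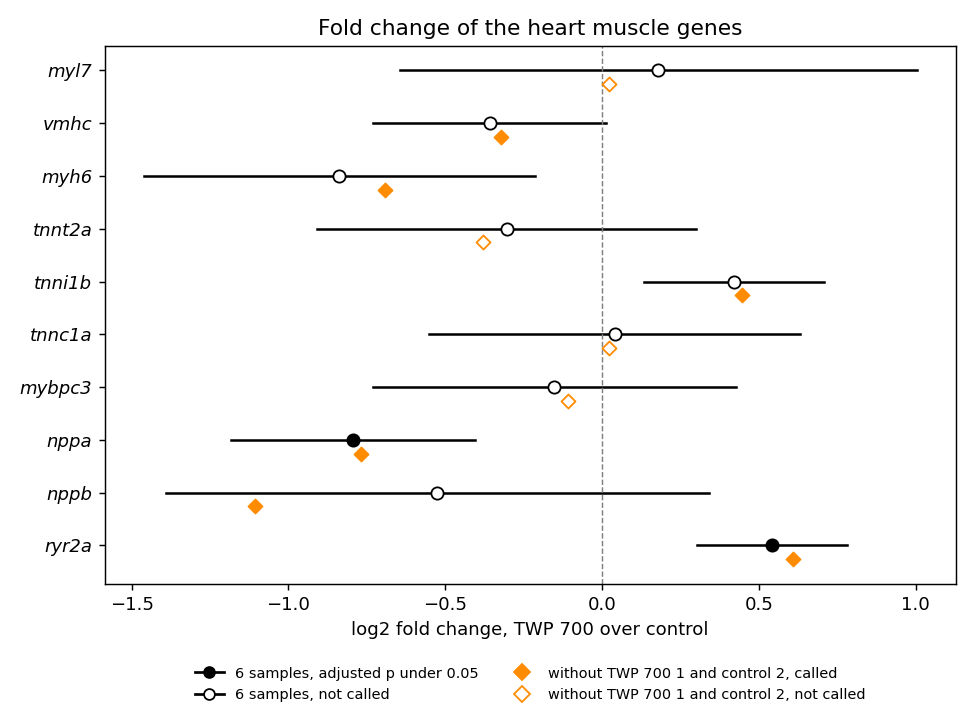
log2 fold change of TWP 700 over control for each heart muscle gene, as circles with 95% intervals from all 6 samples and as diamonds without TWP 700 replicate 1 and control replicate 2. Filled symbols passed at an adjusted p under 0.05; nppa and ryr2a are filled in both fits, and of these 2 fits vmhc, myh6, tnni1b and nppb are filled in the one without the 2 libraries.

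The natriuretic peptide genes both lay lower, and 1 of them passed the test. nppa, which encodes the atrial-type peptide and is expressed in the muscle of both chambers of the fish heart, had 3.33, 3.46 and 3.26 CPM in TWP 700 pools, against 4.80, 5.94 and 6.74 CPM in controls. Every TWP 700 pool was below every control pool, and the 3 TWP 700 pools were nearly level with each other. nppa fell 1.74-fold, with a log2 fold change of -0.79 ± 0.18 and a 95% interval from -1.18 to -0.41 (adjusted p = 0.0123, edgeR). It was called lower in 17 of 17 alternative fits, at log2 fold changes between -0.92 and -0.65, and the highest adjusted p was 0.0482 without TWP 700 replicate 3 (edgeR). Without both libraries that stood apart the log2 value was -0.77 (adjusted p = 0.0138, edgeR). Neither library that stood apart was far from its group for nppa: control replicate 2 was at 1.03 times the mean of the other 2 controls, and TWP 700 replicate 1 at 0.992 times that of the other 2 TWP 700 pools.

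nppb, which encodes the brain-type peptide made in heart muscle, was the least abundant member by read count. It had 1.08, 0.665 and 0.709 CPM in TWP 700 pools, against 1.52, 0.545 and 1.45 CPM in controls, or between 20 and 73 reads per sample. Control replicate 2 was the lowest sample, the other 2 controls were above all TWP 700 pools, and the log2 fold change was -0.53 ± 0.39 with a 95% interval from -1.39 to 0.34 (adjusted p = 0.417, edgeR). Without control replicate 2 the log2 value was -0.85 ± 0.32 (adjusted p = 0.0876, edgeR), and without both libraries that stood apart it was -1.11 ± 0.34 and passed (adjusted p = 0.026, edgeR).

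ryr2a, a gene of the ryanodine receptor type known for opening the calcium store of heart muscle, rose in TWP 700 larvae. How much of its RNA came from the heart was not tested. ryr2a had 32.9, 33.9 and 32.4 CPM in TWP 700 pools, against 23.3, 24.6 and 20.3 CPM in controls. The groups were well separated, the level was 1.46-fold that of controls (log2 0.54 ± 0.11, adjusted p = 0.00718, edgeR), and the call held in 17 of 17 alternative fits, with log2 values from 0.46 to 0.67 and adjusted p of at most 0.0372. Without both libraries that stood apart it was 0.61 (adjusted p = 0.000445, edgeR). Its paralog ryr2b lay the other way. It had 2.84, 2.45 and 1.97 CPM in TWP 700 pools, against 4.11, 8.71 and 3.37 CPM in controls, again without overlap (log2 -1.15 ± 0.34, adjusted p = 0.0537, edgeR). ryr2b passed in 6 of 17 alternative fits, including those without control replicate 3 (log2 -1.40, adjusted p = 0.018, edgeR) and with the gene length trend removed (log2 -1.01, adjusted p = 0.00828, edgeR). Without control replicate 2 its log2 value was -0.63 (adjusted p = 0.0787, edgeR).

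Ryanodine receptor genes are also used by neurons, and some neuron markers were higher, as ryr2a was. Of 9 neuron markers 4 were called higher and 0 lower, beside 7.87% and 7.29% of all tested genes. The median log2 fold change of the 9 markers was 0.43. Their summed level was 625.1, 525.6 and 543.6 CPM in TWP 700 pools, against 514.4, 462.6 and 494.3 CPM in controls, and none of the 9 was at 0. The synaptic genes snap25b (log2 -0.24, adjusted p = 0.17, edgeR) and snap25a (log2 0.036, adjusted p = 0.892, edgeR), named after their values were seen, did not pass. The growth cone gene gap43 (log2 0.73 ± 0.19, adjusted p = 0.0262, edgeR) and the tubulin-binding stmn2a (log2 0.48 ± 0.11, adjusted p = 0.0157, edgeR) led the markers called. The gap43 call held without control replicate 2 and was lost when any 1 of the other 5 samples was left out (edgeR adjusted p from 0.0572 to 0.106), and that of stmn2a without control replicate 1 (0.0566). The neuron count was 1 higher without TWP 700 replicate 1, TWP 700 replicate 3 or control replicate 3, and 0 without control replicate 1. The part of neuronal RNA in the ryr2a difference was not tested.

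Per length, in deposited TPM, myl7 had the highest mean of the members in both groups, at 46.3 ± 3.7 in TWP 700 larvae and 36.2 ± 13.8 in controls (mean ± SD, n = 3 each), although vmhc was above it in control replicate 2. In TWP 700 larvae tnni1b at 18.2 ± 0.3 and vmhc at 17.0 ± 5.0 came next, then mybpc3 at 12.9 ± 5.0, tnnt2a at 12.5 ± 2.2 and tnnc1a at 7.08 ± 1.51 TPM. In controls vmhc at 19.2 ± 4.8 was second, followed by tnnt2a at 13.8 ± 5.1, mybpc3 at 12.5 ± 4.5, tnni1b at 12.0 ± 0.7 and tnnc1a at 6.16 ± 1.72 TPM. Neighbours in both orders from the second to the fifth place overlapped in their samples. Within each TWP 700 pool vmhc was above mybpc3. The order of the other neighbours changed between pools, so it is not settled by them. The low end held ryr2a at 2.96 ± 0.32, nppa at 2.66 ± 0.29, nppb at 1.3 ± 0.53 and myh6 at 1.05 ± 0.38 TPM in TWP 700 larvae. In controls the low end was nppa at 4.08 ± 0.37, ryr2a at 1.82 ± 0.33, myh6 at 1.64 ± 0.70 and nppb at 1.62 ± 0.76 TPM. All 3 nppa values lay above all 3 ryr2a values in controls. In TWP 700 larvae the 2 genes overlapped across pools, with ryr2a above nppa within each pool.

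The libraries that stood apart split the heart muscle genes into short and long ones, while other muscle genes did not all follow length. Length is given relative to the median gene, from the ratio of the deposited counts to the deposited FPKM. The 5 short members, at under 0.5 of the median length (myl7, tnnt2a, tnni1b, tnnc1a and nppb), were all below the mean of the other 2 controls in control replicate 2, at 0.367 to 0.883 times that mean. The 4 long members, at over 1.9 times the median length (vmhc, myh6, mybpc3 and ryr2a), were all above it, at 1.13 to 1.87 times. nppa, at 0.752 of the median length, was between these sets at 1.03 times. Muscle genes outside the members, picked after their values were seen, went both ways in control replicate 2. Of short genes, cmlc1 (0.368 of the median length) was at 0.560 times and myl10 (0.31) at 1.08 times. Of long genes, myhz1.1 (2.76) was at 0.625 times and ttn.1 (39) at 4.49 times.

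TWP 700 replicate 1 had a similar split with 2 exceptions. Of the 5 short members 4 were below the mean of the other 2 TWP 700 pools and nppb was above it at 1.57 times, and of the 4 long members 3 were above it and ryr2a was level at 0.993 times. Among all 3106 tested genes under 0.5 of the median length, the median ratio of control replicate 2 to the other controls was 0.946, and 5% of these genes were below 0.493. myl7, at 0.434 times, and nppb, at 0.367 times, lay beyond that limit. Among the 4254 tested genes over 1.9 times the median length the median ratio was 1.13, and the long members lay within the limit of 1.88 below which 95% of such genes fell. Why the 2 libraries differ was not tested.

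**Figure D3:**
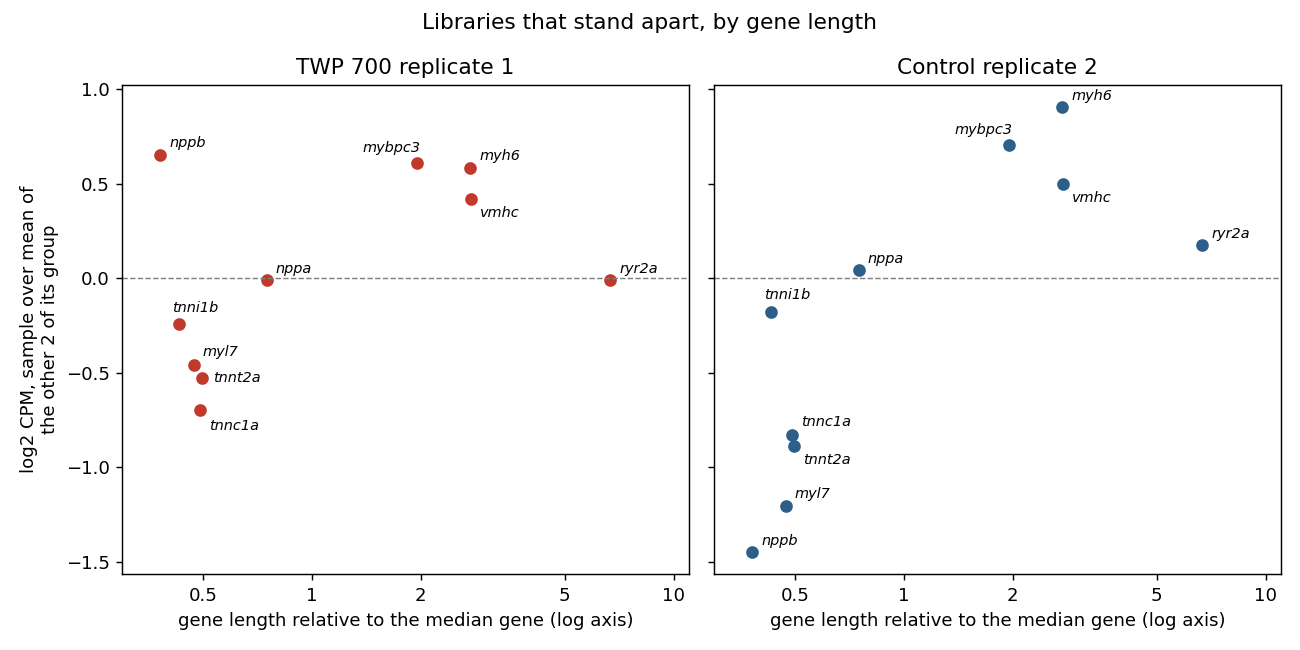
log2 ratio of CPM in TWP 700 replicate 1 (left) and control replicate 2 (right) to the mean of the other 2 samples of the same group, against gene length relative to the median gene on a log axis, 1 point per heart muscle gene. In control replicate 2 the 5 shortest members are below 0 and the 4 longest above 0; nppa is near 0 in both panels.

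Ratios between members within a sample compare the chambers free of library scaling, and 10 ratios were tested by two-sided exact permutation over the 6 samples. With 3 pools per group such an exact permutation test cannot go under p = 0.1, and adjusted over the 10 ratios no p was below 0.5. The ventricular to atrial myosin ratio, vmhc over myh6, involves genes of nearly equal length, 2.76 and 2.74 times the median. It was 15.4, 16.5 and 17.97 in TWP 700 pools, against 14.2, 10.1 and 12.5 in controls, by read counts. Every TWP 700 pool was above every control pool, with a log2 difference of 0.45 (exact permutation p = 0.1, adjusted p = 0.5). With 1 sample left out the log2 difference ranged from 0.31 to 0.56, and without both libraries that stood apart it was 0.37. Each chamber is represented in this ratio by 1 gene.

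The natriuretic genes were set against the contractile genes in the same way. nppa over myl7 was 0.113, 0.0839 and 0.0821 in TWP 700 pools, against 0.130, 0.341 and 0.156 in controls. The groups did not overlap, with a log2 difference of -1.05 (exact permutation p = 0.1, adjusted p = 0.5), which was -0.63 without control replicate 2 and -0.78 without both libraries that stood apart. nppa over the atrial gene myh6 was 0.553, 0.849 and 0.822 in TWP 700 pools, against 0.792, 0.486 and 0.962 in controls, and the groups overlapped (log2 difference 0.02, exact permutation p = 0.9). nppa and myh6 had similar fold changes in the edgeR fit, -0.79 and -0.84 on the log2 scale. nppa over nppb was 3.06, 5.14 and 4.53 in TWP 700 pools, against 3.15, 10.7 and 4.60 in controls, again overlapping (log2 difference -0.37, exact permutation p = 0.6). The other 6 ratios overlapped between the groups, with exact permutation p from 0.3 to 1.

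**Figure D4:**
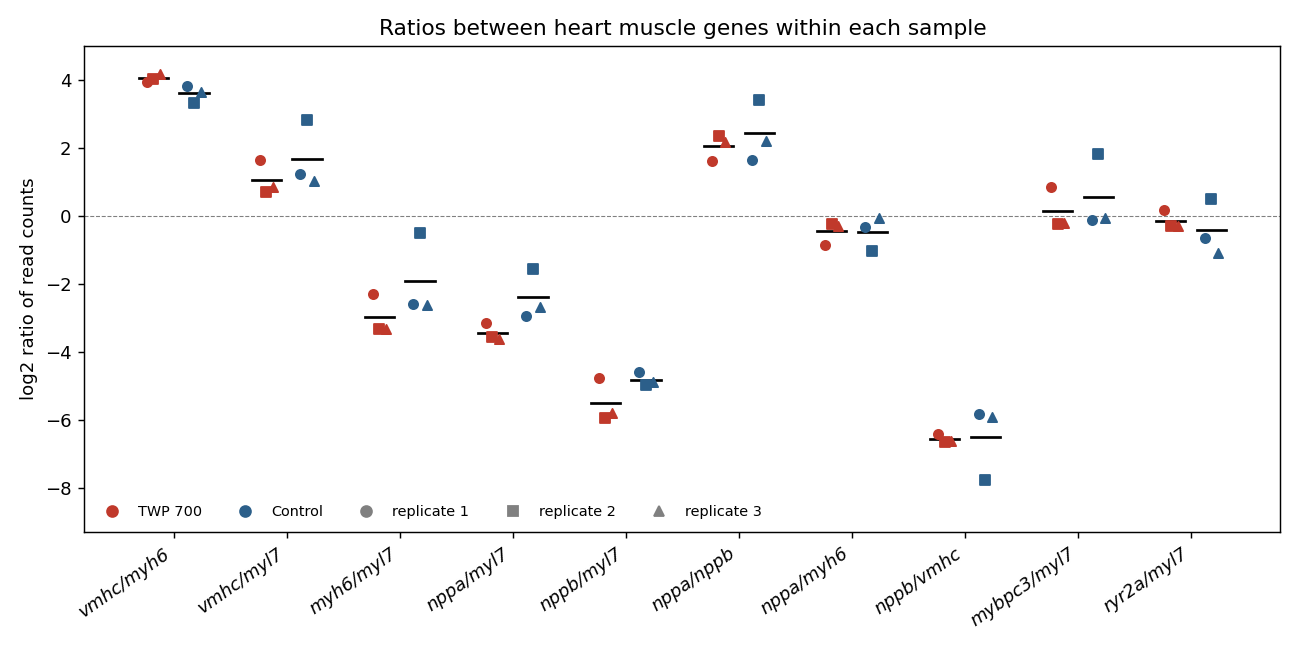
log2 ratio of read counts between pairs of heart muscle genes in each TWP 700 pool (left of each pair, red) and control pool (right, blue), with bars for group means and marker shape for the replicate number. The groups are apart for vmhc/myh6 and nppa/myl7. Control replicate 2 is the highest or the lowest control in every ratio, vmhc/myh6 and nppa/myl7 included.

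Other genes of heart contraction moved in both directions. Of 22 measured contractile and sarcomere genes outside the 10 members, many of them shared with skeletal muscle, 1 was called higher and 4 lower, and their median log2 fold change was -0.10. The muscle LIM protein gene csrp3 was higher (log2 0.94 ± 0.25, adjusted p = 0.0299, edgeR). The actin filament gene lmod2b (log2 -0.73 ± 0.19, adjusted p = 0.0248, edgeR) and nrap, whose product acts in myofibril assembly (log2 -0.70 ± 0.18, adjusted p = 0.0244, edgeR), were lower. The other genes called lower, named after their values were seen, were tnni1d and lmod2a. The lmod2b paralog lmod2a had under 1 CPM in every sample, at 0.045, 0.229 and 0.0526 CPM in TWP 700 pools, against 0.872, 0.871 and 0.533 CPM in controls. The csrp3 call was lost without TWP 700 replicate 2 or 3 or control replicate 1 or 2 (edgeR adjusted p from 0.0569 to 0.113). The lmod2b call was lost without TWP 700 replicate 1 or 3 or control replicate 1 or 3 (0.0546 to 0.0953), and the nrap call without TWP 700 replicate 2 or 3 (0.0994 to 0.11). With library totals the calls of lmod2b (0.0732) and nrap (0.0835) were lost and 2 genes of the list were lower. Counts of this list were 0 higher without TWP 700 replicate 2, TWP 700 replicate 3 or control replicate 1, 2 lower without TWP 700 replicate 3, and 3 higher without both libraries that stood apart.

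Values of 2 other myosin genes of the heart were read beside the members. The cardiac light chain gene cmlc1 had 15.9, 19.2 and 16.7 CPM in TWP 700 pools, against 22.5, 13.9 and 27.1 CPM in controls (log2 -0.29 ± 0.21, adjusted p = 0.408, edgeR). It passed without control replicate 2 (log2 -0.52, adjusted p = 0.0154, edgeR) and without both libraries that stood apart (log2 -0.46, adjusted p = 0.0106, edgeR). The ventricular myosin gene vmhcl had 38.3, 34.0 and 36.3 CPM in TWP 700 pools, against 40.7, 48.7 and 41.3 CPM in controls, without overlap (log2 -0.27 ± 0.11, adjusted p = 0.136, edgeR). The sources used here do not say how reads shared by such paralogs were counted, and the split between vmhc, vmhcl and myh6 is uncertain.

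Of 22 measured calcium handling and excitation genes 2 were called higher and 1 lower, and their median log2 fold change was -0.014. How much of their RNA came from the heart was not tested. casq2, which encodes the calcium buffer of the store, had 78.3, 77.5 and 72.2 CPM in TWP 700 pools, against 43.3, 38.6 and 45.7 CPM in controls. The groups were far apart, and casq2 rose in 17 of 17 alternative fits as well (log2 0.84 ± 0.11, adjusted p = 0.000692, edgeR). The calcium pump gene atp2a2b was higher (log2 0.58 ± 0.15, adjusted p = 0.0209, edgeR), and the gap junction gene gja3 was lower (log2 -0.78 ± 0.19, adjusted p = 0.0173, edgeR). The atp2a2b call was lost without TWP 700 replicate 1 (0.053), control replicate 1 (0.0924) or control replicate 3 (0.0562). That of gja3 was lost without TWP 700 replicate 1 (0.0549), TWP 700 replicate 3 (0.0701) or control replicate 1 (0.0563). Counts of this list were 1 higher and 0 lower without TWP 700 replicate 1 or control replicate 1, 0 lower without TWP 700 replicate 3, 1 higher and 2 lower without control replicate 3, and 2 lower without both libraries that stood apart.

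Of 19 measured heart transcription factor genes 0 were called higher or lower by edgeR, and 1, gata5, named after its values were seen, had an unadjusted p under 0.05 (log2 0.46, adjusted p = 0.05, edgeR, which did not pass). DESeq2 called 1 gene of the list higher, as did edgeR with library totals, with a CPM of at least 1 in 3 samples and with the gene length trend removed. Their median log2 fold change was 0.073. The most abundant were nr2f1a, a factor of atrial identity that many other tissues also express, at 57.6, 57.8 and 58.9 CPM in TWP 700 pools and 56.5, 50.9 and 58.3 CPM in controls, and nr2f2.

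In the rest of the natriuretic system, 1 of 11 measured genes was called higher and 1 lower, and their median log2 fold change was -0.11. The part of heart RNA in their values was not tested. prkg1b, which encodes a cyclic GMP-dependent kinase downstream of natriuretic receptors, had 49.4, 49.8 and 40.0 CPM in TWP 700 pools, against 23.4, 20.9 and 25.5 CPM in controls. The groups were far apart, and the call held in 17 of 17 alternative fits (log2 1.0 ± 0.12, adjusted p = 0.000506, edgeR). The C-type peptide gene nppcl was lower (log2 -0.53 ± 0.15, adjusted p = 0.0403, edgeR), a call that held without control replicate 2 and was lost when any 1 of the other 5 samples was left out, at adjusted p from 0.0757 to 0.123. It was lost with library totals as well (0.138). The receptor genes npr1a, npr1b, npr2 and npr3 and the processing enzyme gene corin, named after their values were seen, had log2 fold changes from -0.32 to 0.036 and did not pass.

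Of 13 measured genes that respond to wall stress in mammals, 3 were called higher and 0 lower, beside 7.87% and 7.29% of all tested genes. The median log2 fold change of the 13 was 0.25. It was 0.11 without TWP 700 replicate 1, 0.15 without control replicate 2 and 0.10 without both. Without TWP 700 replicate 3 it was 0.36. Per sample, the median log2 deviation of the 13 from the gene mean was 0.387, 0.0721 and -0.0914 in TWP 700 replicates 1 to 3. In control replicates 1 to 3 it was -0.0839, -0.0766 and 0.00954. ankrd1b, which encodes a stretch-responsive ankyrin repeat protein, had 51.1, 43.7 and 43.2 CPM in TWP 700 pools, against 16.1, 17.3 and 19.8 CPM in controls (log2 1.38 ± 0.12, adjusted p = 5.87e-05, edgeR). The skeletal actin gene acta1b, also a gene of trunk muscle, had 1021, 859.3 and 909.9 CPM in TWP 700 pools, against 406.4, 533.5 and 517.6 CPM in controls (log2 0.94 ± 0.16, adjusted p = 0.00315, edgeR). Both calls held in 17 of 17 alternative fits. The remaining call, named after its values were seen, was the skeletal actin gene acta1a (log2 0.50 ± 0.14, adjusted p = 0.0304, edgeR). nppa, which belongs to the same response in mammals, fell. Pools of whole larvae do not show how much of the ankrd1b and actin RNA came from the heart. ankrd1b, the actin genes and nppa may therefore not report on the same tissue. The ankrd1b paralog ankrd1a, named after its values were seen, had 4.64, 3.30 and 2.31 CPM in TWP 700 pools, against 4.63, 5.69 and 5.94 CPM in controls, and did not pass (log2 -0.66 ± 0.24, adjusted p = 0.0861, edgeR). Of this list 1 gene was called lower without TWP 700 replicate 1, and 3 were without both libraries that stood apart.

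Markers of other tissues were read beside these values. Of 18 fast skeletal muscle markers 0 were higher and 1 was lower, the myosin binding protein gene mybpc2b (log2 -0.81 ± 0.12, adjusted p = 0.00161, edgeR), and their median was -0.20. Their summed level ranged from 65824 to 91435 CPM in TWP 700 pools and from 82351 to 102120 CPM in controls. Of 7 smooth muscle markers 1 was lower, tagln (log2 -0.40 ± 0.12, adjusted p = 0.0429, edgeR), and it passed without control replicate 2 but not when any 1 of the other 5 samples was left out (0.0664 to 0.142), nor with library totals (0.171) or the robust option off (0.0501). Of 5 epicardial markers 1 was higher, aldh1a2, which makes retinoic acid (log2 0.72 ± 0.10, adjusted p = 0.00122, edgeR). The median of the 5 was -0.026, with 2 above 0 and 3 below. Of 8 erythroid markers 2 were higher, alas2 (log2 1.34 ± 0.17, adjusted p = 0.000537, edgeR) and slc4a1a, and slc4a1a did not pass without TWP 700 replicate 1, control replicate 1 or control replicate 3 (0.0733 to 0.076). The median of the 8 was 0.13, with 6 above 0 and 2 below. It was 0.0053 without both libraries that stood apart and 0.23 without control replicate 3. The summed level of the 8 overlapped, at 704.8 to 805.5 CPM in TWP 700 pools and 653.6 to 775.7 CPM in controls. Of the slow muscle markers 1 was called lower without TWP 700 replicate 1, and 3 were without both libraries that stood apart. Their part in the values of the heart genes was not tested.

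Of 10 endothelial and endocardial markers 0 were called by edgeR, and their median was -0.16. The 1 with an unadjusted p under 0.05 was pecam1, named after its values were seen (log2 -0.30, adjusted p = 0.16, edgeR). klf2a, a gene that flowing blood induces in the endocardium, had 61.0, 61.8 and 92.0 CPM in TWP 700 pools, against 231.8, 65.2 and 283.3 CPM in controls. Control replicate 2 lay among the TWP 700 pools and the other 2 controls were far above them (log2 -1.43 ± 0.59, adjusted p = 0.187, edgeR). Without control replicate 2 the log2 value of klf2a was -1.85 (adjusted p = 6.36e-05, edgeR), and without both libraries that stood apart it was -1.74 (adjusted p = 0.000326, edgeR). Its sister gene klf2b had 96.7, 39.0 and 48.5 CPM in TWP 700 pools, against 59.1, 77.2 and 29.4 CPM in controls, and did not pass (adjusted p = 0.882, edgeR). With the robust option off klf2a also passed (adjusted p = 0.0453, edgeR). Of this list 2 genes were called lower without control replicate 2, and 2 were without both libraries.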

How the data were processed

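RNA of 6 pools of 80 larvae was measured, 3 TWP 700 and 3 control. Per the labels' protocols, ribosomal RNA was depleted and stranded total RNA libraries were made from RNA with an integrity number over 7.0. The submitters' processing notes name HISAT2, StringTie 2.1.3b, DESeq2 and the build GRCz11 without roles, and the sources used here do not say whether counting used strand. Per the file headers, the authors deposited read counts, TPM and FPKM. Every gene of the table had a read in each sample. Coordinates and sequences were not used here.

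edgeR 4.0.16 (R 4.3.3) was run on the counts with TMM and a filter on low expression per group, TWP 700 was tested against control by its robust quasi-likelihood F test, and Benjamini-Hochberg adjustment ran over 23761 genes. The SE divides the size of a log2 fold change by the square root of F. A count of 3 was 0.0623 to 0.0817 CPM per sample. Deposited TPM served to compare genes, and deposited FPKM with counts gave relative gene length. Ratios used counts plus 0.5. Whether the pools came from separate clutches is not stated, so p-values measure the spread between these pools. The 10 members and all lists were chosen with earlier results of these data known.

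Genes named beside the members were, per list, the 2 called genes with the largest change in each direction at a mean of at least 1 CPM, otherwise its 2 most abundant genes, with ryr2b, cmlc1 and vmhcl. Of these, nr2f2, smyhc1, myl10 and slc4a1a are given without full values. Alternatives changed the scaling (RLE, upper quartile, library totals), the tool (DESeq2 1.42.0, limma-voom from limma 3.58.1), the filter (none, or 3 samples with a CPM of at least 1) and the robust option, added the replicate number as a block, removed a gene length trend, and left out each sample or TWP 700 replicate 1 with control replicate 2.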

Additional observations from a re-analysis of the deposited data

How the results depend on the processing

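nppa and ryr2a kept their direction and their call in all 17 alternatives. Among the 10 members, 2 were higher with library totals (11.8% of all tested genes higher), with CPM of at least 1 in 3 samples (9.0%), with DESeq2 (9.56%) and with the gene length trend removed (9.28%), and 2 were lower with DESeq2 (9.14% of all tested genes lower) and with the trend removed (9.18%). Without TWP 700 replicate 1 and control replicate 2 together, 2 were higher and 4 lower, where 11.1% and 10.9% of all genes were called in those directions. With 1 sample left out, between 1 and 2 were higher and between 1 and 2 lower, beside 4.06% to 8.61% of all tested genes higher and 3.75% to 8.33% lower. Library totals called 2809 genes higher and 868 lower, and moved the median log2 of all genes to 0.131. With them the medians of the other contractile genes (0.030), calcium genes (0.12), natriuretic genes (0.022), smooth muscle markers (0.071) and epicardial markers (0.10) turned positive.

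Members near 0 turned direction without control replicate 2 (myl7, tnnc1a, mybpc3) or TWP 700 replicate 2 (tnnc1a). So did nr2f2 without TWP 700 replicate 3, and klf2b without TWP 700 replicate 1, control replicate 3 or both libraries (-0.017). With 1 sample left out, log2 fold changes ranged from -0.12 to 0.44 for myl7, from -0.18 to 0.24 for tnnc1a, from -0.38 to 0.12 for mybpc3, from -0.0054 to 0.16 for nr2f2 and from -0.34 to 0.47 for klf2b. With 1 sample left out, log2 ratio differences ranged from -0.26 to 0.23 for nppa/myh6, from -0.70 to 0.29 for nppb/vmhc, from -0.76 to 0.12 for nppa/nppb, from -0.76 to 0.23 for mybpc3/myl7 and from -0.058 to 0.74 for ryr2a/myl7. Without both libraries nppa/nppb was 0.34 and nppa/myh6 -0.063. The cause was not tested.

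Replicate numbers did not pair the samples: correlations of deviations between same-numbered pools were -0.0404, -0.0901 and 0.0298. With the replicate block edgeR called 1317 genes higher and 1248 lower, against 1871 and 1731, with 1 member higher and 1 lower, and csrp3, lmod2b, nrap, nppcl, tagln and gap43 lost their calls (adjusted p from 0.0507 to 0.0881). The exact p of vmhc/myh6, nppa/myl7, nppb/myl7 and nppa/nppb was then 0.25, the smallest that 3 pairs allow. Depth limits nppb most, with 20 to 73 reads per sample.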

Other observations

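The genes whose pattern was most like the mean standardized profile of the 7 contractile genes over the 6 samples were ptgs1, si:ch73-345f18.3, taf11, si:ch211-283g2.2 and si:zfos-464b6.2, among 18737 genes with a mean of at least 2 CPM. They were described by Pearson correlation alone and were not tested. None of the 5 was called between the groups. The cyclooxygenase gene ptgs1 had 10.3, 11.6 and 10.4 CPM in TWP 700 pools, against 11.2, 10.5 and 13.6 CPM in controls. The mean profile itself lay between -0.17 and 0.064 in TWP 700 pools and between -0.11 and 0.34 in controls. It averages genes that partly ran against each other, so it does not stand for each member. Over the 6 samples r was -0.873 for myl7 with vmhc and -0.887 for tnnc1a with mybpc3, but 0.974 for vmhc with myh6. In control replicate 2 the short contractile genes were below and the long ones above the mean of the other 2 controls.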
